A study of Mus musculus with 35 samples.

Results

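Interferon-induced genes were followed one by one in mouse podocytes, the epithelial cells that cover the glomerular capillaries with their foot processes. The members were 47 genes named by symbol, and all 47 were found among the 33292 genes of the expression table. They fall into 9 groups by role: 4 transcription factors, 4 IFIT genes, 5 OAS genes, 5 sensors of RNA and DNA, 9 GTPases, 4 genes of the Isg15 system, the PARP group of 3 genes, 6 genes of membrane and restriction factors, and 7 others.

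The RNA came from podocytes of 35 mice, each of which was a library of its own. The 3 genotypes shared a floxed *Lmx1b* allele whose homeodomain exons are lost upon recombination. *Lmx1b*+/lox mice, labelled WT, kept a normal allele and served as controls. *Lmx1b*H77L/lox mice kept an allele with an amino acid exchange in the first LIM domain, and *Lmx1b*C118F/lox mice one in the second, as the only copy in recombined podocytes. All mice, controls included, carried an rtTA transgene active in podocytes, tetO::Cre and the mTmG reporter, were 7 to 10 weeks old, and drank 2 mg/ml doxycycline for 7 days, so that Cre recombinase was made in podocytes and green cells could be sorted. Bortezomib (Btz), a proteasome inhibitor, was injected every other day at 0.3 μg per g body weight, and its solvent DMSO was given to the other mice. Of the 6 groups by genotype and treatment, 5 had 6 mice, and the *Lmx1b*C118F/lox group under bortezomib had 5. The mice will be called control, H77L and C118F mice. In the sorted cells, fewer cells with a transcript and less transcript per cell cannot be told apart.

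Interferons are secreted when cells sense foreign or misplaced nucleic acids. Type I interferons act through the receptor chains Ifnar1 and Ifnar2, the kinases Jak1 and Tyk2 and a complex that contains Stat2 and Irf9 and binds the interferon-stimulated response element. Type II interferon acts through the receptor chains Ifngr1 and Ifngr2 and on gamma-activated sites. The induced proteins degrade or trap viral RNA, attack the membranes around intracellular parasites, block the entry of viruses, and feed back on the signal.

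The sum over 9 podocyte markers was 22123 to 37203 TPM in the DMSO-treated control mice and 5080 to 11936 TPM in the DMSO-treated knock-in mice, so podocyte transcripts were abundant in each of them and lower in the knock-in mice. TPM are reads per gene divided by gene length and scaled to a common total in each mouse. *Lmx1b* itself had medians of 71.5 TPM in control, 119.8 TPM in H77L and 103.9 TPM in C118F mice under DMSO, and a gene-wide value does not separate the alleles. Endothelial markers stood out in C118F mouse 1 under DMSO, with a sum over 8 genes of 119.8 TPM against a median of 24.5 TPM in its group. Leukocyte markers stood out in control mouse 1 (476.6 TPM over 12 genes, group median 30.6), and tubule markers in control mouse 2 (998.4 TPM over 8 genes, group median 47.5). The mesangial sum over 5 genes was 37.2 to 107.2 TPM in control and 571.4 to 968.1 TPM in knock-in mice under DMSO. Desmin, which injured podocytes also make, made up 703.4 of 780.3 TPM in C118F mouse 5. The podocyte and mesangial sums thus moved with genotype as the members did, and their part in the differences below was not tested. Relative depth was 27.6% of the median mouse in bortezomib-treated C118F mouse 2 and 72.6% to 126.2% in the others. These 4 libraries, namely C118F mouse 1 and control mice 1 and 2 under DMSO and C118F mouse 2 under bortezomib, are called the libraries that stood apart, and counts without them are given where they differ. Other libraries were as far from their groups in a marker sum, such as H77L mouse 5 under DMSO with tubule markers of 266.2 TPM against a median of 11.4 TPM. All libraries with a sum of leukocyte, endothelial, mesangial or tubule markers at least 4 times the group median were therefore also left out, 9 in all with the one of low depth, which is called the marker rule.

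Promoter sequences are shown first because the members share binding motifs in them. RefSeq promoters of the GRCm38.p6 build, running from 250 bases before to 50 bases after the start, were at hand for 36 of the 47 members. The core of the interferon-stimulated response element was searched as GAAANNGAAA, or TTTCNNTTTC on the other strand, and was found in 20 of the 36 members (55.6%) against 3.99% of 27025 genes. The gamma-activated site was searched as TTCNNNGAA, which reads the same on both strands, and was found in 11 of 36 members (30.6%) against 9.55% of genes. Matches of these 2 motifs can overlap each other. All 6 GTPases with a promoter at hand held the response element core, as did 3 of 4 IFIT genes. It was found in 1 of 4 transcription factor promoters, that of *Stat2*. A match is a string of letters, and binding was not measured.

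The stretches that hold the cores are printed below as examples for 10 members, from the IFIT genes, the GTPases, *Isg15* and *Ifitm2*, whose levels are compared in what follows. Those of other members with a core, such as *Gbp7* and *Bst2*, are not printed. Each is read 5′ to 3′ on the strand of the gene, and capitals mark the cores of the response element and, in *Igtp* and *Irgm2*, also the gamma-activated site before it.
Ifit1, chr19:34640775-34640823, plus strand: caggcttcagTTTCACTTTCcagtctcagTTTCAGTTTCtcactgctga
Ifit3, chr19:34583363-34583426, plus strand: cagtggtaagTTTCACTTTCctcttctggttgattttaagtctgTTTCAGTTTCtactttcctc
Ifit3b, chr19:34607759-34607822, plus strand: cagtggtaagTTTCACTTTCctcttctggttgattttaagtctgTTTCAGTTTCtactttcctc
Gbp2, chr3:142620594-142620623, plus strand: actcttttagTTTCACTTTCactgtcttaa
Gbp3, chr3:142559989-142560024, plus strand: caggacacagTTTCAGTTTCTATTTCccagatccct
Igtp, chr11:58199501-58199541, plus strand: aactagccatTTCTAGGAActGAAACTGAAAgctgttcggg
Irgm2, chr11:58214892-58214932, plus strand: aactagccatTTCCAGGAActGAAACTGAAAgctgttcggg
Irgm1, chr11:48871425-48871460, minus strand: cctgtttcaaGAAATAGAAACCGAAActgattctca
Isg15, chr4:156200865-156200906, minus strand: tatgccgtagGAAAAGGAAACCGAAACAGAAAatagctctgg
Ifitm2, chr7:140955988-140956017, minus strand: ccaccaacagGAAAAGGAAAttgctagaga
The printed stretches of *Ifit3* and *Ifit3b* were identical in 64 of 64 bases, and those of *Igtp* and *Irgm2* in 40 of 41 bases. Among tested members with a promoter at hand, 8 of 17 with the core and 6 of 12 without it were raised in H77L mice against control mice under DMSO. In C118F mice these counts were 11 of 17 and 8 of 12. Over all genes tested, 22.4% rose in H77L and 13.7% in C118F mice. Some of the members counted passed the filter for testing only through the knock-in mice, as given below.

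In control podocytes under DMSO the members spanned a wide range of levels, which can be compared between genes because TPM are per length. *Ifitm2*, an interferon-induced transmembrane protein, was highest with 1790 to 2244 TPM (median 2061). It was followed by *Ifi27*, a small hydrophobic protein of mitochondrial and nuclear membranes, with 298 to 396 TPM (median 328). *Irf1* came next with 21.0 to 210.4 TPM (median 103). *Ifit2* with 68.0 to 86.7 TPM (median 76.99) lay within the range of *Irf1*. *Igtp*, *Irgm2* and *Ifi35* had medians of 53.4, 52.9 and 48.8 TPM, and their ranges overlapped each other.

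At the low end, 13 members did not reach a TPM above 1 in every mouse of any group and were not tested: all 5 OAS genes, the sensors *Dhx58* and *Zbp1*, the GTPases *Mx1*, *Mx2* and *Iigp1*, and *Ifi44*, *Trim30a* and *Sp100*. The OAS enzymes make 2′-5′ oligoadenylates that activate RNase L. *Oasl2*, the highest of them, was at 0.0877 to 2.53 TPM (median 0.203) in control, 0 to 6.004 TPM (median 0.446) in H77L and 0.0729 to 25.9 TPM (median 3.28) in C118F mice under DMSO. *Oas1a* was at 0 to 2.85 TPM (median 0.145), 0.104 to 1.26 TPM (median 0.804) and 0 to 3.52 TPM (median 1.32) in the same order. *Oas2* and *Oas3* stayed at or under 1.032 TPM in every mouse. *Mx1* was at 0 in every DMSO-treated knock-in mouse and reached 0.342 TPM in a control mouse. Of the untested members, *Oasl2* and *Iigp1* were high in 2 C118F mice under DMSO. *Oasl2* read 25.9 TPM in C118F mouse 1 and 23.9 TPM in mouse 5, and at most 3.83 TPM in the other 4. *Iigp1*, a GTPase that attacks the membranes around parasites, read 117.6 TPM in mouse 1 and 31.5 TPM in mouse 5, and at most 3.92 TPM in the other 4.

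**Figure D1:**
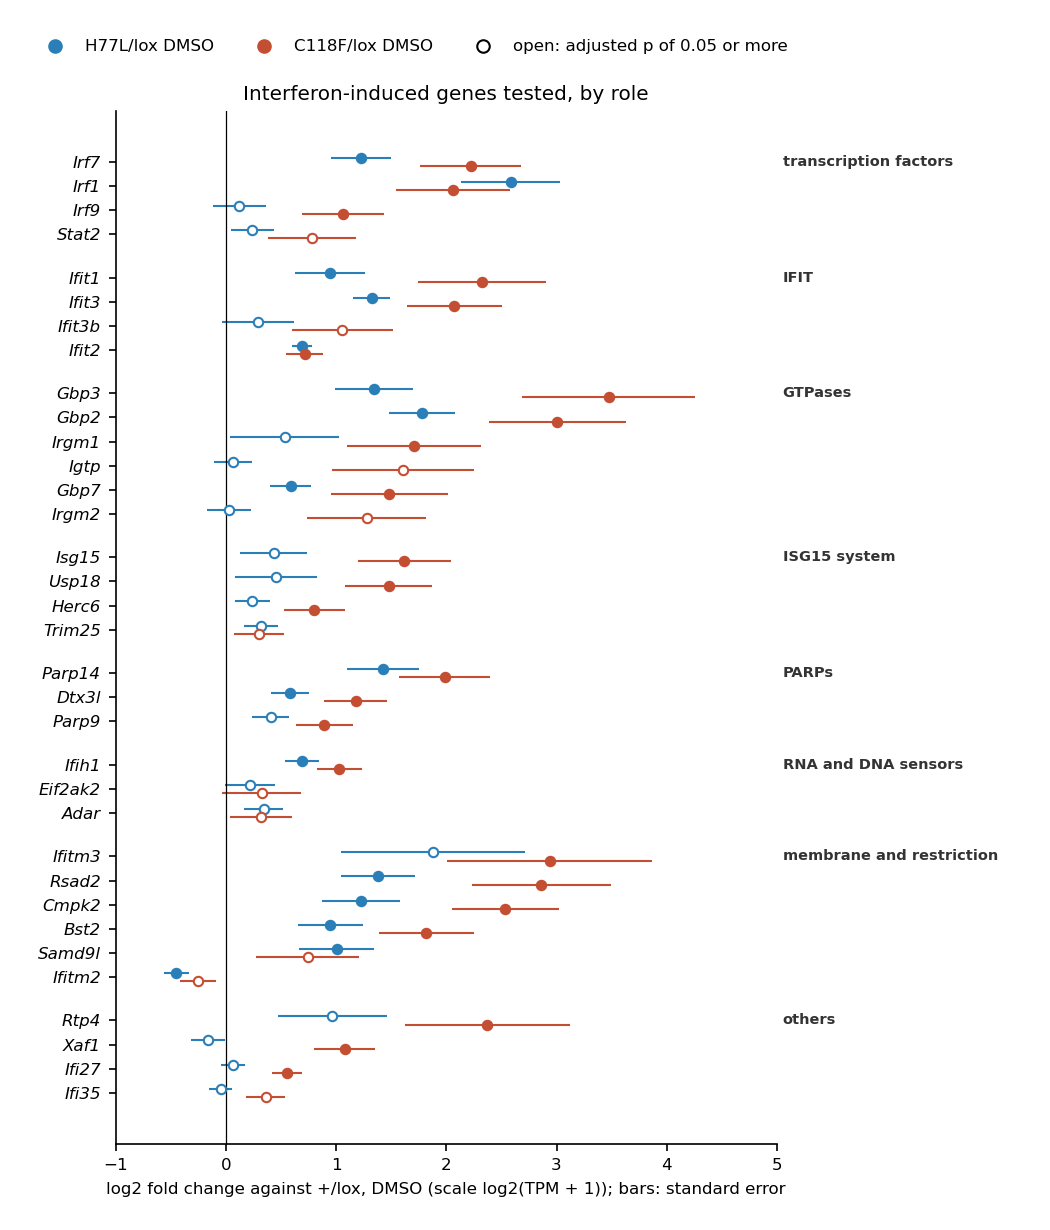
Log2 fold change (x axis, log2(TPM + 1) scale) of the 34 tested members (y axis, grouped by role) in H77L (blue) and C118F (red) against control mice under DMSO, 6 mice per group; bars are standard errors and open points have an adjusted p of 0.05 or more. *Gbp3* and *Gbp2* lie farthest right in C118F mice (3.47 and 3.01), *Irf1* in H77L mice (2.58), and *Ifitm2* lies left of 0 in both.

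The first question was which members differed between the knock-in lines and control mice under DMSO. Expression was raised in both lines, across most roles. In H77L mice, 15 of 34 tested members rose and 1, *Ifitm2*, fell (limma on log2(TPM + 1), Benjamini-Hochberg adjusted p under 0.05). Over all genes tested in this comparison, 22.4% rose and 22.4% fell. In C118F mice 24 of 34 tested members rose and none fell, against 13.7% of all genes that rose and 16.6% that fell. The median log2 fold change of the tested members was 0.56 in H77L and 1.38 in C118F mice, and that of all genes tested was -0.01 and -0.06. Both comparisons share the control mice, so they are not independent of each other.

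*Usp18*, *Samd9l*, *Irf7*, *Rsad2*, *Cmpk2* and *Parp14* passed the filter only through the knock-in group, so a level above the filter in that group was the condition for testing them. Of the 28 members that passed it in control mice, 10 rose and 1 fell in H77L mice and 19 rose in C118F mice. Over all genes tested, whichever group they passed in, 22.4% rose in H77L and 13.7% in C118F mice. With all 47 members in the fit and no filter, 12 rose and 1 fell in H77L mice and 17 rose in C118F mice, where 9.98% and 5.95% of all genes rose. The labels number the mice, from 46302 to 47155 in the control, from 46621 to 48975 in the H77L and from 46301 to 50093 in the C118F mice under DMSO. In a fit that also had this mouse number as a linear term, 6 of 34 members rose in H77L and 12 of 34 in C118F mice, against 13.4% and 9.7% of all genes that rose in these fits. Without the libraries that stood apart, 15 rose and 1 fell in H77L mice and 17 rose in C118F mice, where 19.2% and 12.6% of all genes rose. Under the marker rule 15 rose and 1 fell in H77L mice, against 16.8% of all genes that rose, and 18 rose in C118F mice, against 16.4%.

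Under the stricter cutoffs used in the study (adjusted p under 0.001 and a log2 fold change above 2), 1 member was raised in H77L mice, *Irf1*, where 1.62% of all genes passed. None passed in C118F mice, where 1.63% of all genes did, although 10 members had a log2 fold change above 2. The lowest adjusted p of a member in C118F mice was 0.00135, that of *Cmpk2*. The spread between mice was wide in that group: the median standard deviation of the tested members was 1.05 on the log2 scale, against 0.35 in control and 0.38 in H77L mice. Over all 11306 genes past the filter it was 0.34 in C118F, 0.25 in control and 0.23 in H77L mice.

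**Figure D2:**
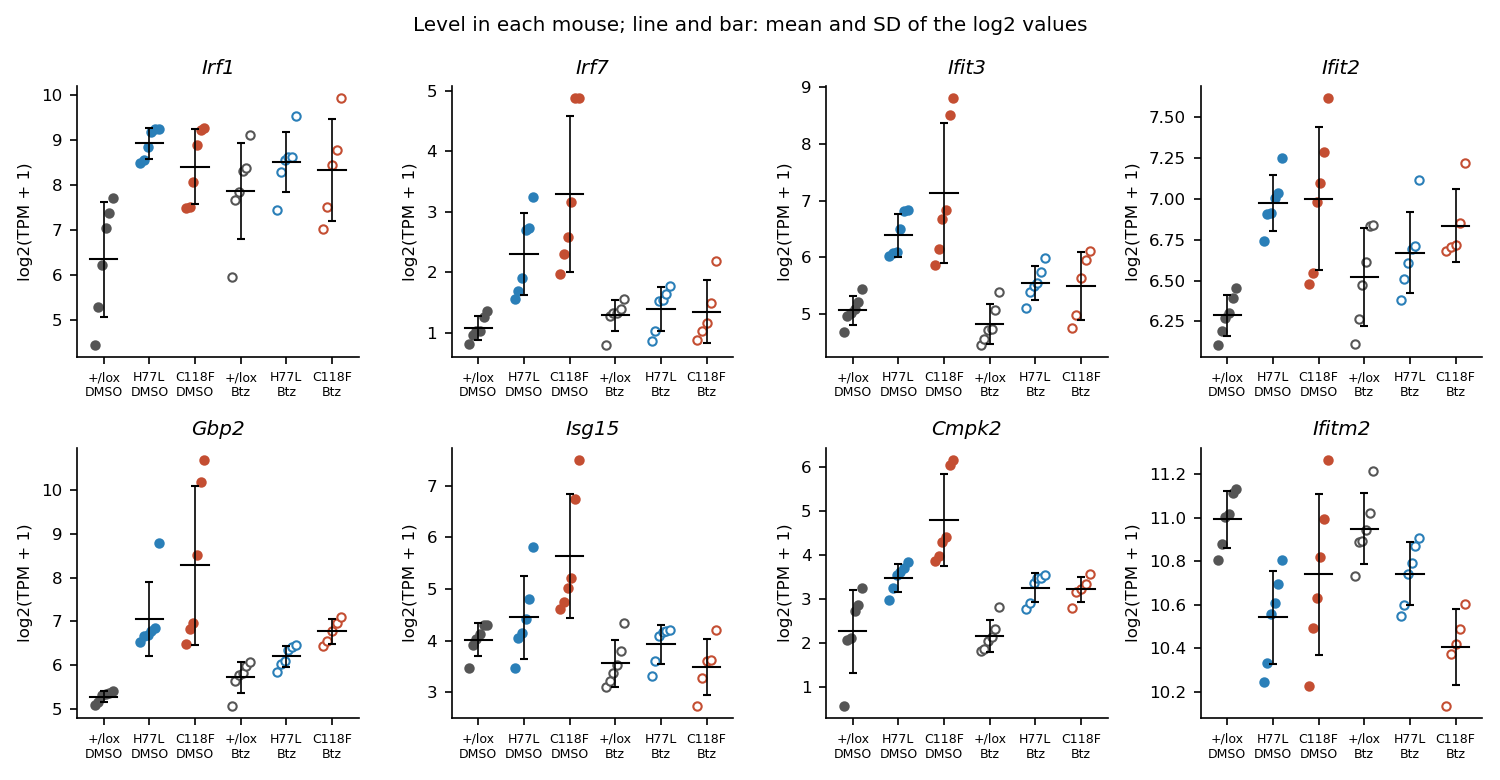
Levels of 8 members in each mouse (y axis, log2(TPM + 1), scaled for each gene) for the 6 groups (x axis; filled points DMSO, open points bortezomib), with the mean as a line and the SD as a bar. For *Gbp2* and *Ifit3* the DMSO-treated knock-in mice lie above all control mice (*Gbp2* at least 88.9 against at most 41.2 TPM), and 2 C118F mice lie above the other 4.

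Among the transcription factors, *Irf1* and *Irf7* rose in both lines. *Irf1*, an early activator of interferon and MHC class I genes (chromosome 11, 53660812 to 53669200, GRCm39), was at 21.0 to 210.4 TPM (median 103) in control, 362 to 613 TPM (median 522) in H77L and 178 to 619 TPM (median 372) in C118F mice under DMSO. Every H77L mouse was above every control mouse, while the C118F mice overlapped the controls. The log2 fold change was 2.58 (standard error 0.45, adjusted p = 0.00038) in H77L and 2.06 (standard error 0.52, adjusted p = 0.00802) in C118F mice. With the mouse number as a term the call in C118F mice was lost (adjusted p = 0.0554). The estimate was -0.52 for C118F against H77L mice, which was not called (adjusted p = 0.931).

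*Irf7*, the factor that amplifies type I interferon production, was scarce in control mice at 0.764 to 1.58 TPM (median 1.037). It was at 1.93 to 8.47 TPM (median 4.11) in H77L and 2.92 to 28.4 TPM (median 6.48) in C118F mice, with no overlap with the controls in either line. Its log2 fold change was 1.23 (standard error 0.27, adjusted p = 0.0024) in H77L and 2.22 (standard error 0.46, adjusted p = 0.00223) in C118F mice. *Irf9*, the DNA-binding subunit of the type I complex, was at 11.2 to 21.9 TPM (median 15.8) in control and 11.4 to 33.6 TPM (median 15.7) in H77L mice, which overlapped broadly (0.12, standard error 0.24, adjusted p = 0.695). It was at 12.8 to 82.2 TPM (median 29.9) in C118F mice and rose by 1.07 (standard error 0.37, adjusted p = 0.0425) on the log2 scale. This call was lost in 9 of 12 fits that left out 1 mouse (adjusted p up to 0.0929) and with the mouse number as a term (0.216). The call was also lost without the libraries that stood apart (adjusted p = 0.193), under the marker rule (0.14) and with no filter (0.115). *Stat2*, the partner of *Irf9*, passed the test in neither line, at 0.24 (adjusted p = 0.336) in H77L and 0.78 (adjusted p = 0.155) in C118F mice.

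The IFIT proteins bind viral RNA and hold back its translation. Their genes lie side by side on chromosome 19 (34527932 to 34632174, GRCm39), and 3 of 4 rose in each line. *Ifit2* was at 68.0 to 86.7 TPM (median 76.99) in control, 106 to 151 TPM (median 124) in H77L and 88.1 to 195 TPM (median 131) in C118F mice, so that the knock-in mice of both lines were above all control mice. Its log2 fold change was 0.69 (standard error 0.09, adjusted p = 4.15e-05) in H77L and 0.72 (standard error 0.17, adjusted p = 0.00561) in C118F mice. *Ifit3* was at 24.6 to 42.4 TPM (median 32.1), 63.7 to 113 TPM (median 78.3) and 57.2 to 446 TPM (median 107) in the same order, again with no overlap with the controls. It changed by 1.32 (standard error 0.17, adjusted p = 2.33e-05) in H77L, the smallest adjusted p of any member in that line, and by 2.07 (standard error 0.43, adjusted p = 0.00229) in C118F mice.

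*Ifit1* rose by 0.95 (standard error 0.32, adjusted p = 0.0253) in H77L and 2.32 (standard error 0.58, adjusted p = 0.00809) in C118F mice. In H77L mice the call was lost without control mouse 3 or 4 (adjusted p = 0.0513 and 0.0558), with all 35 mice in 1 fit (0.101) and with the mouse number as a term (0.366), which also ended the call in C118F mice (0.0572). *Ifit3b* passed the test in neither line (0.29, adjusted p = 0.487 in H77L and 1.06, adjusted p = 0.0939 in C118F mice). *Ifit3* and *Ifit3b* are near-identical copies, as their promoters also show, and reads that fit both could be assigned to either, so the split between them is uncertain.

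Many of the GTPases attack the vacuoles of intracellular parasites. *Gbp2*, a guanylate-binding protein, was at 32.9 to 41.2 TPM (median 38.9) in control mice. It was at 91.3 to 439.7 TPM (median 105) in H77L and 88.9 to 1663 TPM (median 245) in C118F mice, and each knock-in mouse was above every control mouse. The log2 fold change was 1.78 (standard error 0.30, adjusted p = 0.000277) in H77L and 3.01 (standard error 0.62, adjusted p = 0.00222) in C118F mice. *Gbp3*, its neighbour on chromosome 3, was at 1.72 to 7.13 TPM (median 3.87), 5.24 to 25.5 TPM (median 9.35) and 6.55 to 445 TPM (median 43.4) in the same order. Its change in C118F mice, 3.47 (standard error 0.78, adjusted p = 0.00416), was the largest of any member, and in H77L mice it was 1.35 (standard error 0.35, adjusted p = 0.00657). The H77L call of *Gbp3* was lost with all 35 mice in 1 fit (adjusted p = 0.0767) and with the mouse number as a term (0.0714). *Gbp7* rose by 0.59 (standard error 0.19, adjusted p = 0.0195) in H77L and 1.48 (standard error 0.53, adjusted p = 0.0457) in C118F mice, the latter lost in 9 of 12 fits without 1 mouse (adjusted p up to 0.0851). The H77L call of *Gbp7* was lost with all 35 mice in 1 fit (adjusted p = 0.213), and with the mouse number as a term the calls were lost in both lines (0.326 and 0.256). Both were also lost under the marker rule (adjusted p = 0.078 and 0.0863). The C118F call was lost as well without the libraries that stood apart (adjusted p = 0.174) and with no filter (0.127).

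Of the IRG GTPases of chromosome 11, *Irgm1* was called in C118F mice and *Igtp* and *Irgm2* in neither line, and no difference between the lines was called for any IRG gene tested. *Igtp* was at 41.2 to 75.6 TPM (median 53.4) in control, 43.9 to 84.1 TPM (median 56.9) in H77L and 53.2 to 990.4 TPM (median 104) in C118F mice. Control and H77L mice covered nearly the same range, and in C118F mice 2 of 6 values lay far above the rest (990.4 TPM in mouse 1 and 757.3 TPM in mouse 5, next 128.6 TPM). The log2 fold change was 0.06 (standard error 0.17, adjusted p = 0.787) in H77L and 1.61 (standard error 0.65, adjusted p = 0.0734) in C118F mice, which did not pass, while with all 35 mice in 1 fit the C118F change did (adjusted p = 0.00491). *Irgm2* was at 39.4 to 83.8 TPM (median 52.9), 40.5 to 94.6 TPM (median 53.6) and 37.3 to 529 TPM (median 124), with 0.03 (standard error 0.20, adjusted p = 0.917) in H77L and 1.28 (standard error 0.54, adjusted p = 0.0862) in C118F mice, which passed in that fit as well (adjusted p = 0.0129). That fit shares 1 spread over all groups, while the members spread most widely in C118F mice under DMSO. Its errors for these mice can thus be too small. *Igtp* and *Irgm2* share 162 bases of exon on the same strand, 3.55% of the exonic bases of *Igtp* and 4.33% of those of *Irgm2*, so reads there could not be told apart.

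*Irgm1*, which regulates the other IRG proteins, rose by 1.71 (standard error 0.61, adjusted p = 0.0459) in C118F mice, a call lost in 8 of 12 fits without 1 mouse (adjusted p up to 0.0994) and without the libraries that stood apart (adjusted p = 0.185), and with the mouse number as a term (0.193). In H77L mice it was at 16.8 to 263 TPM (median 24.4), against 18.5 to 28.7 TPM (median 24.3) in control mice (0.53, standard error 0.49, adjusted p = 0.396). The value of 263.1 TPM belonged to H77L mouse 6, and the next highest was 30.4 TPM.

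*Isg15*, a ubiquitin-like protein that is joined to other proteins, was at 10.03 to 18.8 TPM (median 15.9) in control, 10.1 to 55.6 TPM (median 18.5) in H77L and 23.6 to 181 TPM (median 33.7) in C118F mice. C118F mice were above all controls, and H77L mice overlapped them. The log2 fold change was 0.43 (standard error 0.30, adjusted p = 0.257) in H77L and 1.62 (standard error 0.42, adjusted p = 0.0104) in C118F mice. *Usp18*, which removes Isg15 from its substrates, had 0.45 (adjusted p = 0.342) in H77L and 1.48 (adjusted p = 0.0117) in C118F mice, and the ligase *Herc6* had 0.24 (adjusted p = 0.229) in H77L and 0.80 (adjusted p = 0.0416) in C118F mice. The call of *Herc6* was lost in 9 of 12 fits without 1 mouse, and the calls of *Isg15*, *Usp18* and *Herc6* were lost with the mouse number as a term (adjusted p = 0.0518, 0.0518 and 0.225). That of *Herc6* was also lost without the libraries that stood apart (adjusted p = 0.119), under the marker rule (0.0591) and with no filter (0.104). *Trim25*, the ligase that activates the sensor Rigi, was at 12.9 to 26.0 TPM (median 17.8), 19.9 to 28.1 TPM (median 23.8) and 15.6 to 41.3 TPM (median 22.9) and passed in neither line (0.32, standard error 0.15, adjusted p = 0.1 in H77L and 0.30, standard error 0.23, adjusted p = 0.339 in C118F mice). No difference between the lines was called for any of these genes.

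Parp14 attaches ADP-ribose to proteins, and Dtx3l forms a complex with Parp9. *Dtx3l* was at 6.98 to 12.8 TPM (median 10.6) in control, 10.6 to 19.7 TPM (median 16.4) in H77L and 14.9 to 53.7 TPM (median 20.5) in C118F mice. It rose by 0.59 (standard error 0.17, adjusted p = 0.0126) in H77L and 1.18 (standard error 0.29, adjusted p = 0.00653) in C118F mice, and without the libraries that stood apart neither call was kept (adjusted p = 0.0702 and 0.062). With the mouse number as a term the H77L call was lost (adjusted p = 0.152). *Parp9* was at 10.7 to 23.2 TPM (median 16.6), 18.005 to 26.5 TPM (median 22.1) and 19.9 to 54.9 TPM (median 28.1), and changed by 0.41 (standard error 0.17, adjusted p = 0.0602) in H77L and 0.90 (standard error 0.26, adjusted p = 0.0184) in C118F mice. The C118F call of *Parp9* was lost without the libraries that stood apart (adjusted p = 0.1), with no filter (0.0526) and with the mouse number as a term (0.107). These genes overlap head to head on chromosome 16 by 458 exonic bases, and reads of libraries that do not mark the strand cannot be told apart there. *Parp14*, whose control range was 0.04 to 1.65 TPM (median 0.752), rose by 1.43 (standard error 0.32, adjusted p = 0.00271) in H77L and 1.98 (standard error 0.41, adjusted p = 0.00228) in C118F mice, the former lost with the mouse number as a term (adjusted p = 0.0604).

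Of the RNA sensors, *Ifih1*, which encodes the receptor MDA5 for long double-stranded RNA, rose in both lines. It was at 7.56 to 11.7 TPM (median 8.44) in control, 11.9 to 21.5 TPM (median 15.4) in H77L and 12.4 to 33.7 TPM (median 19.1) in C118F mice, with no overlap with the controls. The changes were 0.69 (standard error 0.16, adjusted p = 0.00269) in H77L and 1.03 (standard error 0.20, adjusted p = 0.00169) in C118F mice, and both calls held in each of 12 fits without 1 mouse. *Adar*, which edits adenosines in double-stranded RNA, was at 4.88 to 11.2 TPM (median 7.61), 8.35 to 14.1 TPM (median 9.35) and 4.22 to 16.8 TPM (median 9.66) and did not pass (0.34, standard error 0.18, adjusted p = 0.127 in H77L and 0.32, standard error 0.28, adjusted p = 0.413 in C118F mice). *Eif2ak2*, the kinase PKR that halts translation upon binding RNA, did not pass either (0.22, adjusted p = 0.454 in H77L and 0.32, adjusted p = 0.528 in C118F mice).

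The membrane and restriction factors held large rises and the single fall. *Cmpk2*, a nucleotide kinase of mitochondria, rose by 1.22 (standard error 0.35, adjusted p = 0.0115) in H77L and 2.53 (standard error 0.49, adjusted p = 0.00135) in C118F mice. *Rsad2*, its neighbour on chromosome 12 and the source of the antiviral nucleotide ddhCTP, rose by 1.38 (standard error 0.34, adjusted p = 0.00454) in H77L and 2.86 (standard error 0.63, adjusted p = 0.00354) in C118F mice. *Bst2* or tetherin, which holds budding viruses at the cell surface, was at 18.5 to 82.6 TPM (median 39.1), 52.1 to 135 TPM (median 69.0) and 69.6 to 487 TPM (median 122), with 0.95 (standard error 0.30, adjusted p = 0.0182) in H77L and 1.82 (standard error 0.43, adjusted p = 0.00573) in C118F mice. With the mouse number as a term the H77L calls of *Cmpk2*, *Rsad2* and *Bst2* were lost (adjusted p = 0.153, 0.131 and 0.288), and that of *Bst2* was also lost with no filter (0.059). *Samd9l* had 1.01 (standard error 0.34, adjusted p = 0.0256) in H77L and 0.74 (standard error 0.47, adjusted p = 0.249) in C118F mice, and its call in H77L mice was lost without control mouse 3 or 4 or H77L mouse 4 or 6 (adjusted p from 0.0509 to 0.0604), with no filter (0.0811) and with the mouse number as a term (0.172).

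*Ifitm2* and *Ifitm3* both block the entry of viruses through endosomes. *Ifitm2* was at 1790 to 2244 TPM (median 2061) in control, 1214 to 1791 TPM (median 1535) in H77L and 1200 to 2460 TPM (median 1697) in C118F mice. It fell by 0.45 on the log2 scale in H77L mice (standard error 0.11, adjusted p = 0.00555), a call lost with the mouse number as a term (adjusted p = 0.133), and was at -0.25 (standard error 0.16, adjusted p = 0.253) in C118F mice. *Ifitm3* was at 3.30 to 140.3 TPM (median 12.8), 19.4 to 541 TPM (median 52.7) and 24.9 to 1626 TPM (median 108). The control value of 140.3 TPM belonged to control mouse 1, the library with leukocyte markers, and the C118F value of 1626 TPM to C118F mouse 1, the library with endothelial markers. The log2 fold change of *Ifitm3* was 1.88 (standard error 0.83, adjusted p = 0.0802) in H77L and 2.94 (standard error 0.93, adjusted p = 0.0269) in C118F mice, and the call in C118F mice was lost without control mouse 2, 3 or 4 or C118F mouse 5 (adjusted p from 0.0524 to 0.0647), with no filter (0.0852) and with the mouse number as a term (0.124). Without the libraries that stood apart, *Ifitm3* was called in H77L mice as well (2.31, adjusted p = 0.0373).

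Of the remaining members, *Ifi27* was at 298 to 396 TPM (median 328) in control, 281 to 417 TPM (median 349.6) in H77L and 386 to 708 TPM (median 476) in C118F mice, with 0.06 (standard error 0.11, adjusted p = 0.664) in H77L and 0.55 (standard error 0.13, adjusted p = 0.0065) in C118F mice. *Ifi35*, an inhibitor and scaffold in innate signalling, was at 46.5 to 55.8 TPM (median 48.8), 40.9 to 60.8 TPM (median 45.8) and 49.1 to 113 TPM (median 56.5) and did not pass (-0.05, standard error 0.10, adjusted p = 0.738 in H77L and 0.36, standard error 0.17, adjusted p = 0.131 in C118F mice). Its exons share 620 bases with *Vat1* on the opposite strand, which averaged 35.3 TPM, and those of *Irf9* share 282 bases with *Rnf31* on the same strand, so reads there could not be told apart. *Xaf1*, a pro-apoptotic antagonist of XIAP, had -0.16 (adjusted p = 0.409) in H77L and 1.08 (adjusted p = 0.00963) in C118F mice, a call lost with the mouse number as a term (adjusted p = 0.0522). *Rtp4*, a chaperone of receptors, had 0.97 (adjusted p = 0.126) in H77L and 2.37 (adjusted p = 0.0266) in C118F mice, and its call was lost without control mouse 2 or 6 or C118F mouse 5 (adjusted p from 0.054 to 0.0621), without the libraries that stood apart (0.0956), with no filter (0.0834) and with the mouse number as a term (0.133).

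The pathway upstream of the members was read from a list of 40 genes found in the table. No transcript of an interferon gene was abundant. All 10 ligands on the list were at 0 in every mouse except *Ifna2*, which was seen in 2 H77L mice at 0.165 TPM under DMSO and 0.185 TPM under bortezomib. In H77L mice 22 genes of the list were tested under DMSO, of which 11 rose and 3 fell, where 22.4% of all genes rose and 22.4% fell. In C118F mice 21 were tested, of which 7 rose and 3 fell, where 13.7% of all genes rose and 16.6% fell. Under bortezomib 4 of 21 rose and 2 fell in H77L mice, and 4 of 21 rose and 3 fell in C118F mice, near the shares of all genes that rose (12.5% and 15.1%) and fell (11% and 12.4%).

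Of the receptors, *Ifngr2* rose by 1.11 (standard error 0.24, adjusted p = 0.00202) in H77L and 1.13 (standard error 0.23, adjusted p = 0.00211) in C118F mice, and its partner *Ifngr1* changed by -0.66 (standard error 0.14, adjusted p = 0.0014) in H77L and -0.86 (standard error 0.14, adjusted p = 0.000328) in C118F mice. *Ifnar1* rose in H77L mice (0.61, adjusted p = 0.00679) and had 0.44 (adjusted p = 0.137) in C118F mice.

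*Socs3*, a feedback inhibitor of Jak kinases, rose by 2.34 (standard error 0.27, adjusted p = 1.09e-05) in H77L and 1.33 (standard error 0.36, adjusted p = 0.0117) in C118F mice. Among the upstream sensors, *Myd88*, the adaptor of Toll-like receptors, rose by 1.92 (standard error 0.21, adjusted p = 5.25e-06) in H77L and 1.92 (standard error 0.16, adjusted p = 7.08e-07) in C118F mice, and the RNA sensor *Rigi* by 1.01 (standard error 0.17, adjusted p = 0.000267) in H77L and 1.19 (standard error 0.21, adjusted p = 0.00074) in C118F mice. *Tlr3* rose as well (0.54, adjusted p = 0.0487 in H77L and 0.83, adjusted p = 0.00981 in C118F mice), whereas *Tlr7* fell (-1.08, adjusted p = 0.00947 in H77L and -1.41, adjusted p = 0.00551 in C118F mice). *Mavs*, through which Rigi and MDA5 signal, did not pass (0.12, adjusted p = 0.477 in H77L and 0.02, adjusted p = 0.921 in C118F mice).

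**Figure D3:**
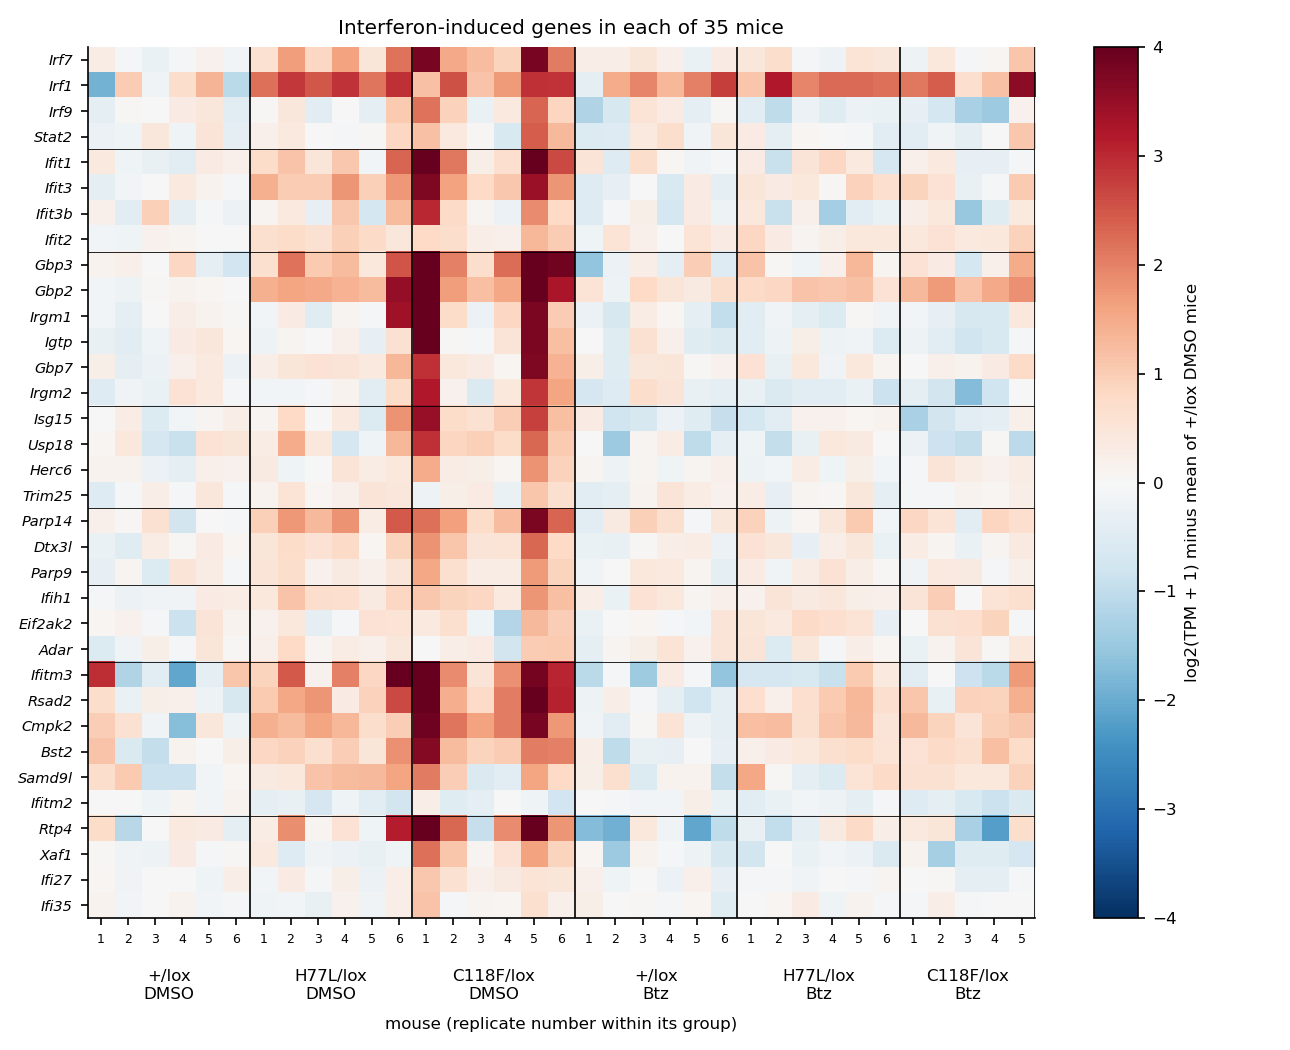
Log2(TPM + 1) of the 34 tested members (rows, grouped by role) in each of 35 mice (columns, by group), minus the mean of the DMSO-treated control mice; differences beyond 4 in size have the end colours. C118F mice 1 and 5 and H77L mouse 6 under DMSO stand out across most rows, with 31, 34 and 30 of 34 members above their group means.

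The members varied together between mice of the same group. In each group the tested members were expressed as deviations from the group mean of log2(TPM + 1), and the deviations were correlated over the 35 mice. Among 561 pairs of members the median Pearson r was 0.50, and 94.8% of pairs were above 0. Among all pairs of the 11306 genes past the filter the median was 0.03, with 54.0% above 0. With the C118F mice under DMSO left out, the median over pairs of members was 0.24 and that over all genes 0.02. Without the libraries that stood apart it was 0.49.

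With all mice included, the GTPases were the most tightly linked group. Their median r was 0.83, with a range from 0.76 to 0.91 over 15 pairs. The highest value, 0.91, was that of *Igtp* and *Irgm2*, which share exonic bases. The IFIT genes had a median of 0.64 (6 pairs), the transcription factors 0.60 (6 pairs) and the PARP group 0.56 (3 pairs). The median was 0.49 in the group of others (6 pairs) and 0.48 in the sensors (3 pairs). The membrane and restriction factors had 0.46 (15 pairs), and the Isg15 system 0.34 (6 pairs). Single members differed in how closely they followed the rest. *Irf7* had the highest median r with the other members, 0.69, and *Gbp2* followed with 0.68. *Irf1* had the lowest, 0.14, followed by *Ifitm2* with 0.16 and *Trim25* with 0.21. The closest partner of *Trim25* was *Adar* (r = 0.83). The values by group and by single member were computed with all mice only. Among C118F mice under DMSO, *Igtp* read 990.4 TPM in mouse 1 and 757.3 TPM in mouse 5, and at most 128.6 TPM in the others. *Gbp2* read 1663 and 1174 TPM in these mice, and at most 367 TPM in the others. Whether the rankings hold without the C118F mice under DMSO was not tested.

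Among C118F mice under DMSO, mouse 1 held the highest value for 21 of 34 members and mouse 5 for 12, while mouse 3 held the lowest for 21 and mouse 4 for 11. The median deviation from the group mean was 1.35 in mouse 1 and 1.05 in mouse 5, and -0.96 in mouse 3 and -0.78 in mouse 4. All 34 members were above the group mean in mouse 5 and 31 in mouse 1. The libraries of these 2 mice differed in other respects: endothelial markers summed to 119.8 TPM in mouse 1 and 16.1 TPM in mouse 5, leukocyte markers to 128.8 and 38.2 TPM, and *Pecam1* read 25.3 and 0.398 TPM. Of the leukocyte markers, *Cd74*, the invariant chain of MHC class II, read 85.4 and 15.2 TPM, *Cd68* 15.1 and 14.4 TPM, *Csf1r* 10.6 and 5.78 TPM and *C1qa* 8.05 and 0.733 TPM. *Ptprc*, the common leukocyte antigen, was at 0.133 and 0 TPM, and *Cd3e* and *Siglech*, which define T cells and plasmacytoid dendritic cells, were at 0 in both.

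Podocyte markers summed to 5080 TPM in mouse 1 and 5329 TPM in mouse 5, against 11936 TPM in mouse 3. H77L mouse 6 held the highest value for 21 of 34 members in its group, with a median deviation of 0.58, leukocyte markers of 79.7 TPM against a group median of 17.4 TPM, and the lowest podocyte sum of its group (5387 TPM). The part of these markers in the differences between mice was not tested. In the bortezomib groups the median deviation of a mouse stayed between -0.33 and 0.33, both in C118F mice. In control mice under DMSO it ran from -0.14 to 0.18.

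**Figure D4:**
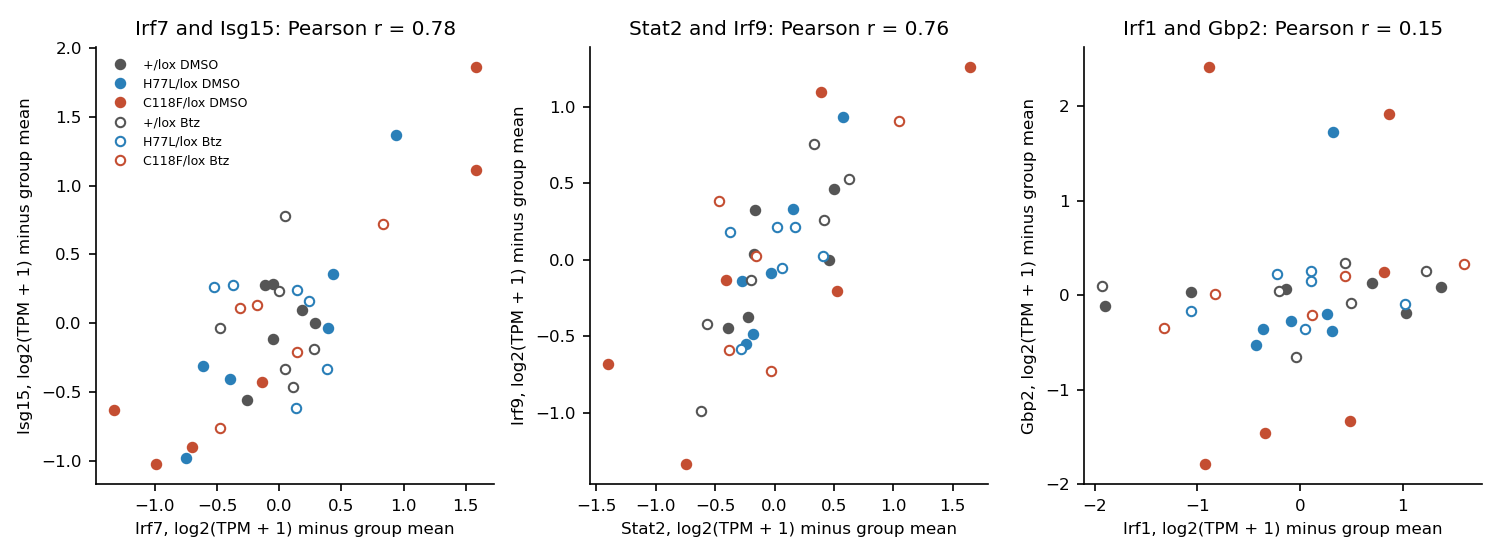
Deviation from the group mean in log2(TPM + 1) of 2 members in each panel (x and y axes) for 35 mice, coloured by genotype with DMSO filled and bortezomib open. Mice high in *Irf7* were high in *Isg15* (r = 0.78) and mice high in *Stat2* were high in *Irf9* (r = 0.76), whereas *Irf1* and *Gbp2* scatter (r = 0.15).

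Of 6 relations between factors and targets tested over the 35 mice, *Irf7* with *Isg15* and with *Ifit3* and *Stat2* with *Irf9* passed. Nothing is read from the one of *Irf7* with *Oas2*, which was at 0 in 27 of 35 mice and did not pass the filter. *Irf7* and *Isg15* had a Pearson r of 0.78 (permutation within groups, p = 0.00049, adjusted over 6 relations p = 0.00104) and a Spearman rho of 0.59 (permutation p = 0.00352, adjusted 0.00704). Without the 2 mice farthest from the median of *Irf7*, r was 0.65, and without the C118F mice under DMSO 0.56 (29 mice). *Irf7* and *Ifit3* had an r of 0.77 (permutation p = 0.00169, adjusted 0.00253) and a rho of 0.55 (permutation p = 0.00658, adjusted 0.00987), with 0.60 without the 2 mice and 0.35 without the C118F mice under DMSO.

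*Stat2* and *Irf9*, partners in 1 complex, had an r of 0.76 (permutation p = 1e-05, the smallest these permutations can give, adjusted 6e-05) and a rho of 0.72 (permutation p = 5e-05, adjusted 0.0003). This r was 0.72 without the 2 mice and 0.73 without the C118F mice under DMSO.

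Neither relation of *Irf1* passed the threshold after adjustment. With *Gbp2* it had an r of 0.15 (permutation p = 0.345, adjusted 0.345) and a rho of 0.34 (permutation p = 0.0476, adjusted 0.0571), with r at 0.18 without the 2 mice. With *Irf7* it had an r of 0.22 (permutation p = 0.183, adjusted 0.22) and a rho of 0.31 (permutation p = 0.0686, adjusted 0.0686), with r at 0.31 without the 2 mice.

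The second question was how the members stood under bortezomib. In bortezomib-treated H77L mice, 5 of 31 tested members rose against bortezomib-treated control mice, *Cmpk2*, *Rsad2*, *Bst2*, *Ifit3* and *Gbp2*, and none fell. Over all genes tested, 12.5% rose and 11% fell. *Gbp3*, *Samd9l*, *Rsad2* and *Rtp4* passed the filter only through the H77L mice, so a level above the filter there was the condition for testing them. Of the 27 members that passed it in control mice, 4 rose. In bortezomib-treated C118F mice, *Bst2*, *Cmpk2* and *Gbp2* rose and *Ifitm2* fell among 29 tested, against 15.1% of all genes that rose and 12.4% that fell. Here *Gbp3* and *Samd9l* passed the filter only through the C118F mice, and neither was called. The share of members called was near that of all genes, 5 of 31 and 3 of 29 for the rises. With all 35 mice in 1 fit, which shares the spread of all groups, 1 member was called in H77L mice, *Cmpk2*, where 10.9% of all genes rose, and the C118F call of *Gbp2* was lost (adjusted p = 0.101).

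*Cmpk2* was at 2.55 to 6.06 TPM (median 3.28) in control and 5.85 to 10.8 TPM (median 9.79) in H77L mice, and at 5.98, 8.03, 8.42, 9.13 and 10.9 TPM in the 5 C118F mice. Its log2 fold change was 1.10 (standard error 0.20, adjusted p = 0.00067) in H77L and 1.05 (standard error 0.21, adjusted p = 0.00161) in C118F mice, beside 1.22 and 2.53 under DMSO. *Bst2* was at 17.9 to 44.7 TPM (median 29.6) and 42.7 to 62.0 TPM (median 52.2), and at 55.2, 58.7, 61.7, 64.2 and 87.2 TPM in C118F mice, which were all above the controls. Its fold changes were 0.75 (standard error 0.17, adjusted p = 0.0037) in H77L and 1.07 (standard error 0.19, adjusted p = 0.000824) in C118F mice.

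*Gbp2* was at 32.3 to 65.8 TPM (median 54.3) in control and 56.2 to 86.6 TPM (median 74.1) in H77L mice, and at 85.0, 93.4, 109, 124 and 137 TPM in C118F mice. All C118F mice were above the controls, and the H77L mice overlapped them. The log2 fold changes were 0.48 (standard error 0.16, adjusted p = 0.0338), lost in 6 of 12 fits without 1 mouse (adjusted p up to 0.0802), and 1.05 (standard error 0.17, adjusted p = 0.000406). *Ifit3* was at 21.0 to 40.9 TPM (median 25.5) and 33.5 to 62.5 TPM (median 44.8), and at 26.0, 30.5, 48.9, 61.2 and 68.0 TPM in C118F mice, with 0.72 (standard error 0.17, adjusted p = 0.00448) in H77L and 0.67 (standard error 0.24, adjusted p = 0.0554) in C118F mice. *Rsad2* rose by 1.02 (standard error 0.22, adjusted p = 0.0028) in H77L mice and did not pass the filter for the comparison of C118F with control mice. *Ifitm2* was at 1699 to 2376 TPM (median 1935) and 1495 to 1916 TPM (median 1742), and at 1124, 1325, 1368, 1437 and 1558 TPM in C118F mice, all below the controls. It had -0.21 (standard error 0.10, adjusted p = 0.152) in H77L mice and fell by 0.54 on the log2 scale in C118F mice (standard error 0.12, adjusted p = 0.00355), a call lost with the mouse number as a term (0.0872).

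Most other members overlapped the controls. *Irf1* was at 61.0 to 550.5 TPM (median 273) in control and 175 to 745 TPM (median 386) in H77L mice, and at 128, 182, 350.4, 436 and 977 TPM in C118F mice (0.64, adjusted p = 0.299 in H77L and 0.46, adjusted p = 0.564 in C118F mice). Here the control mice themselves had a higher median than under DMSO, 273 against 103 TPM. *Isg15* was at 7.57 to 19.2 TPM (median 9.93) and 8.95 to 17.5 TPM (median 16.6), and at 5.65, 8.74, 11.2, 11.4 and 17.6 TPM (0.37, adjusted p = 0.241 in H77L and -0.07, adjusted p = 0.881 in C118F mice). *Ifitm3* was at 5.03 to 21.6 TPM (median 12.0) and 8.82 to 36.4 TPM (median 10.7), and at 7.62, 9.28, 12.7, 17.1 and 58.8 TPM (0.42, adjusted p = 0.471 in H77L and 0.53, adjusted p = 0.435 in C118F mice).

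Of the other GTPases, *Gbp3* was at 0.565 to 8.19 TPM (median 2.74), 3.10 to 10.5 TPM (median 4.19) and, in C118F mice, 1.85, 4.32, 4.81, 5.83 and 11.8 TPM (0.68, adjusted p = 0.199 in H77L and 0.61, adjusted p = 0.3 in C118F mice). *Igtp* was at 36.9 to 83.5 TPM (median 47.2), 37.2 to 64.2 TPM (median 47.5) and 31.5, 35.9, 39.8, 47.4 and 51.6 TPM (-0.11, adjusted p = 0.743 in H77L and -0.31, adjusted p = 0.296 in C118F mice). *Irgm2* was at 34.7 to 92.7 TPM (median 44.6), 30.7 to 46.9 TPM (median 41.3) and 16.1, 31.7, 33.7, 42.4 and 55.1 TPM (-0.37, adjusted p = 0.229 in H77L and -0.63, adjusted p = 0.135 in C118F mice). The values of C118F mice 1 and 5 under DMSO (*Igtp* 990.4 and 757.3 TPM, *Irgm2* 529 and 413 TPM) were not reached by any bortezomib-treated mouse.

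Further members named by their level were *Irf9*, at 6.24 to 23.3 TPM (median 14.1), 7.19 to 13.2 TPM (median 12.2) and, in C118F mice, 5.09, 5.70, 9.25, 12.2 and 17.9 TPM, and *Ifit2*, at 68.0 to 114 TPM (median 92.4), 82.5 to 138 TPM (median 99.6) and 102, 104, 104, 114 and 148 TPM. Neither was called in either line. *Ifih1* was at 7.46 to 14.3 TPM (median 10.9), 10.5 to 13.6 TPM (median 11.5) and 9.25, 13.5, 14.0, 14.9 and 19.0 TPM, and *Adar* at 5.78 to 11.8 TPM (median 9.06), 4.98 to 11.3 TPM (median 8.74) and 6.22, 8.04, 8.66, 10.5 and 11.3 TPM. *Parp9* was at 12.1 to 22.0 TPM (median 16.5), 14.3 to 24.6 TPM (median 19.8) and 14.4, 15.4, 18.4, 20.9 and 21.3 TPM, and *Dtx3l* at 8.06 to 12.5 TPM (median 9.36), 7.83 to 15.4 TPM (median 13.3) and 8.199, 10.97, 11.05, 12.6 and 13.1 TPM. All 4 overlapped between genotypes and were not called.

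*Trim25* was at 13.6 to 27.2 TPM (median 21.1), 13.9 to 26.0 TPM (median 19.7) and, in C118F mice, 17.8, 18.2, 20.02, 20.8 and 22.5 TPM. *Ifi27* was at 262 to 379.7 TPM (median 313), 304 to 359.8 TPM (median 319) and 258, 261, 325, 336 and 341 TPM, and *Ifi35* at 35.8 to 59.3 TPM (median 51.3), 44.4 to 63.3 TPM (median 51.1) and 47.5, 47.7, 49.9, 50.4 and 60.5 TPM. The OAS genes stayed low, with *Oasl2* at 0.0276 to 0.434 TPM (median 0.263), 0 to 1.38 TPM (median 0.138) and 0.0737, 0.497, 0.535, 0.623 and 0.642 TPM. *Oas1a* was at 0 in most of these mice and reached 1.15 TPM in a C118F mouse.

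**Figure D5:**
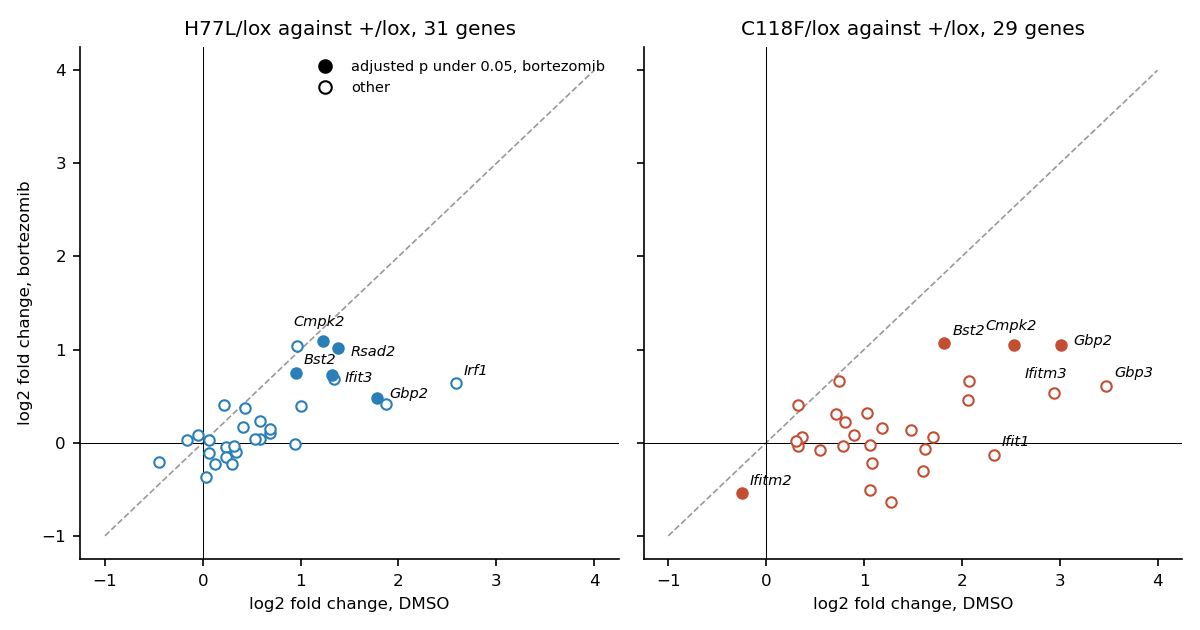
Log2 fold change against control mice under bortezomib (y axis) and under DMSO (x axis) for members tested under both, in H77L (left, 31 genes) and C118F mice (right, 29 genes); filled points have an adjusted p under 0.05 under bortezomib and the dashed line marks equal values. In H77L mice 26 of 31 and in C118F mice 28 of 29 members lie below the line. Some members passed a filter only through the knock-in mice.

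Of 31 members tested under both treatments in H77L mice, 26 had a lower log2 fold change against controls under bortezomib, and the median moved from 0.53 to 0.11. In C118F mice this held for 28 of 29, with medians of 1.08 and 0.09. Over all genes tested under both treatments, 51.6% were lower in H77L and 39.0% in C118F mice. The members varied together between mice, so they are not separate results. *Samd9l*, *Cmpk2* and, in H77L mice, *Rsad2* passed the DMSO filter only through the knock-in mice, which favours a higher value under DMSO. Under bortezomib *Gbp3* and *Samd9l* in both lines, and *Rsad2* and *Rtp4* in H77L mice, passed only through the knock-in mice. Of 13 members raised under DMSO and tested under both in H77L mice, 5 were also called under bortezomib, and of 19 such members in C118F mice, 3 were. Of all genes raised under DMSO in this way, 46.4% in H77L and 76.0% in C118F mice were also called higher under bortezomib. Such genes were picked for a call under DMSO, so these counts are a description. Of them, 86.3% in H77L and 62.3% in C118F mice were lower under bortezomib.

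Bortezomib was then compared with DMSO within each genotype. In control mice no member passed in 29 tested, as no gene did (0% of all genes), and 4 members had an unadjusted p under 0.05, against 8.66% of all genes. *Irf1* had the largest estimate there, 1.52 (standard error 0.55, adjusted p = 0.56). In H77L mice 1 of 34 members fell, *Ifit3*, where 0.74% of all genes fell. Its log2 fold change was -0.84 (standard error 0.17, adjusted p = 0.0352), and all 6 bortezomib-treated mice were below the DMSO-treated ones (at most 62.5 against at least 63.7 TPM). The call of *Ifit3* was lost in 6 of 12 fits without 1 mouse (adjusted p up to 0.0879), with all 35 mice in 1 fit (0.25) and under the marker rule (0.0757). *Gbp2* did not overlap either (at most 86.6 against at least 91.3 TPM), with -0.85 (standard error 0.30, adjusted p = 0.137). How many of all genes were without overlap was not counted here. An unadjusted p under 0.05 was found for 13 of 34 members, against 19.985% of all genes, and the median log2 fold change of the tested members was -0.45 against 0.00 for all genes. *Irf7*, *Usp18* and *Parp14* passed the filter only through the DMSO-treated H77L mice, which favours a fall.

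In C118F mice no member was called, as no gene was (0%), while 22 of 34 members had an unadjusted p under 0.05 against 5.86% of all genes. Of the 34, *Irf7*, *Usp18*, *Parp14*, *Rsad2* and *Rtp4* passed the filter only through the DMSO-treated mice. A level above the filter under DMSO was thus the condition for testing them, which favours a fall. The median log2 fold change was -1.37 for the members and 0.06 for all genes. Of the members, 33 of 34 estimates were below 0, against 4047 of 10814 for all genes. The largest were those of *Gbp3* (-3.10, standard error 0.87, adjusted p = 0.734), *Ifitm3* (-3.05, standard error 0.85, adjusted p = 0.734) and *Rtp4* (-2.76, standard error 0.89, adjusted p = 0.784). *Isg15* had -2.15 (standard error 0.48, adjusted p = 0.492), and every bortezomib-treated C118F mouse was below every DMSO-treated one, at most 17.6 against at least 23.6 TPM. Of the other tested members, *Usp18*, *Igtp*, *Dtx3l*, *Cmpk2* and *Ifi27* did not overlap either. The share of all genes without overlap was not counted, so nothing is read from the number of such members. With all 35 mice in 1 fit 13 of 34 members were called, all lower under bortezomib, where 0.222% of all genes fell. That fit shares 1 spread over all groups. The median standard deviation of the tested members was 1.05 in C118F mice under DMSO and 0.34 to 0.39 in the other groups. Errors of this comparison can thus be too small in that fit.

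The change under bortezomib was compared between genotypes, and no member passed in any of the 3 differences between responses, in which 0%, 0% and 0% of all genes were called. Members that passed the filter only through DMSO-treated knock-in mice are counted here too. The response of H77L minus that of C118F mice had a median of 0.66 over 34 members, with 10 at an unadjusted p under 0.05, against 7.60% of all genes. The response of C118F minus that of control mice had a median of -1.38, with 21 at an unadjusted p under 0.05, against 5.001% of all genes. The response of H77L minus that of control mice had a median of -0.38, with 8 of 34, near the 18.2% of all genes. In that difference the lowest adjusted p was that of *Gbp2*, at -1.30 (standard error 0.36, adjusted p = 0.0965), and it was called under the marker rule.

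Finally the lines were compared with each other. Under DMSO no member and no gene passed (0%), although 30 of 34 members were higher in C118F than in H77L mice, against 40.8% of all genes. The members had a median of 0.82, and 13 had an unadjusted p under 0.05, against 3.85% of all genes. The largest estimates were those of *Gbp3* (2.13, standard error 0.82, adjusted p = 0.931) and *Igtp* (1.54, standard error 0.65, adjusted p = 0.931). *Cmpk2* was the member whose groups did not overlap, at least 13.7 TPM in C118F and at most 13.5 TPM in H77L mice (1.31, standard error 0.38, adjusted p = 0.931). The share of all genes without overlap was not counted, so nothing is read from this. Under bortezomib no member passed in 31 tested, where 0.972% of all genes did, and 3 had an unadjusted p under 0.05, against 14.4% of all genes. The median was -0.02, and *Gbp2* had the lowest adjusted p, at 0.57 (standard error 0.14, adjusted p = 0.0727).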

How the data were processed

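Podocyte RNA of 35 mice was sequenced from polyA libraries made with a SMART-Seq kit. The authors deposited TPM values for each gene and mouse. Per the labels and the methods of the study, reads were trimmed with Trim Galore 0.6.7, aligned to GRCm39 with STAR and counted per gene with featureCounts 1.6.3. A read with several matching positions was placed at 1 of them at random, which can mix near-identical genes. TPM keep no absolute depth, so only relative depth between mice was estimated, from the lowest values.

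Groups were read from the sample titles, and each library was a separate mouse. Values were tested as log2(TPM + 1) with limma 3.58.1 in R 4.3.3, with an intensity trend, over genes above 1 TPM in every mouse of at least 1 group of the fit. The Benjamini-Hochberg adjustment ran over all genes tested. Fold changes on this scale understate changes of low genes. A call is an adjusted p under 0.05. The 12 comparisons were the knock-in lines against control mice and against each other under each treatment, bortezomib against DMSO in each genotype, and the differences between these responses. The script was tested on simulated data. Relations between 2 genes were tested two-sided with 100000 permutations of mice within groups. Positions of genes are from GENCODE on GRCm39, and promoters from RefSeq on GRCm38.p6. Promoters of 11 members were not used here (*Oas2*, *Dhx58*, *Zbp1*, *Mx1*, *Mx2*, *Iigp1*, *Usp18*, *Parp9*, *Parp14*, *Ifi27* and *Rtp4*).

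The members, the role groups and the lists of pathway and marker genes were chosen with earlier results of these data known. Any member could be named, and values in all groups were given for 20 of them: the 2 with the highest mean TPM of each role group, the 3 largest and 3 smallest fold changes of either line under DMSO, and those past a call in chosen comparisons. Other genes are from the pathway list and were picked after their values were seen. Some listed genes are not reported here. Alternatives were a pseudocount of 0.1, other filters or none, quantile normalization, robust estimation, the mouse number as a covariate, all mice in 1 fit, and leaving out each mouse. Leaving out the 4 libraries that stood apart, those of the marker rule or the C118F mice under DMSO was added after the data were seen.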

Additional observations from a re-analysis of the deposited data

Results flagged for a closer look

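Among 108 sets of values, each of 1 named and tested member in 1 group, 3 held a mouse whose gap to its nearest neighbour exceeded the 95% critical value of Dixon's test, where chance gives about 1 in 20. *Ifi35* read 60.5 TPM in C118F mouse 2 under bortezomib, the library of lowest depth. *Irf9* read 7.19 TPM in H77L mouse 2 under bortezomib, below the other mice of its group. *Gbp2* read 439.7 TPM in H77L mouse 6 under DMSO, above the other mice of its group.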

How the results depend on the processing

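With the mouse number as a covariate, 6 members were called in H77L and 12 in C118F mice under DMSO. With all 35 mice in 1 fit, 1 member was called in H77L mice under bortezomib, 0 for bortezomib against DMSO in H77L mice, where no filter also gave 0, and 13 for bortezomib against DMSO in C118F mice. Leaving out 1 mouse at a time gave 14 to 19 calls in H77L and 18 to 27 in C118F mice under DMSO, 4 to 6 and 4 to 5 under bortezomib, 0 to 2 for bortezomib against DMSO in H77L mice, 0 to 1 between the lines under bortezomib, 0 to 2 for the response of H77L minus control mice, and 0 for the other comparisons. Under the marker rule 0 members were called for bortezomib against DMSO in H77L mice, and 1, *Gbp2*, for the response of H77L minus control mice. The median r between members was 0.24 without the C118F mice under DMSO, and the gamma-activated site was found in 6 members in the shorter window of 150 bases. The cause of these changes was not tested. Of 957 alternative fits of single members, 870 kept direction and call, 70 lost and 17 gained a call, and 0 changed sign. These fits cover 108 results, of which only the 50 called in the main fit could lose a call. No paired analysis was possible because the labels give each mouse its own number, which no mice of different groups share. Members near or under 1 TPM, the OAS genes among them, are limited by depth, which TPM do not give.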
